A study of Mus musculus with 16 samples.

Results

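Brown and beige fat cells burn fuel to make heat, and 5 genes that mark this programme were followed here through the chromatin of 3T3-L1 adipocytes. Ucp1 encodes the mitochondrial carrier that lets protons leak back and so releases energy as heat. Cidea encodes a lipid droplet protein and Elovl3 an enzyme that lengthens very long chain fatty acids, both abundant in brown fat. Ppargc1a encodes a coactivator of mitochondrial genes, and Prdm16 a transcriptional regulator that favours the brown over the muscle fate. PPARγ is needed to form every kind of fat cell, and long exposure to its drug ligands is known to raise brown fat genes in white fat cells.

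The sites described are all listed PPARγ and C/EBPα peaks whose centre lies in a fixed mm9 window around each gene. The windows run from 90 kb at Elovl3 and 110 kb at Ucp1 through 130 kb at Cidea and 210 kb at Ppargc1a to 420 kb at Prdm16. They held 27 of the 30588 peaks in the PPARγ list and 26 of the 30519 in the C/EBPα list, 53 of 61107 in all. Membership was set by position, not by any signal. In GRCm38 each of the 5 genes is on the chromosome of its window, but gene starts on mm9 were not used here. A peak in a window is therefore not assigned to the named gene, nor to a promoter, exon or intron. The gene order in RefSeq places Tbc1d9 and Elmod2 beside Ucp1, Impa2 and Tubb6 beside Cidea, Nolc1 and Pitx3 beside Elovl3, Adgra3 and Dhx15 beside Ppargc1a, and Arhgef16 and Actrt2 beside Prdm16.

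3T3-L1 is a clonal mouse fibroblast line that becomes fat cells in culture and is commonly used as a model of white fat. All cells had been induced with dexamethasone, 3-isobutyl-1-methylxanthine and insulin and were used on day 7. For the last hour they received 0.1% DMSO alone or 1 µM rosiglitazone, a PPARγ ligand, in 0.1% DMSO. The peak lists give the signal of 4 antibodies, against the coactivators MED1 and CBP besides PPARγ and C/EBPα, with 1 column per treatment each. There is no replicate check, so no p-value is given, and every interval is an exact 95% interval that covers counting error only.

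Signal is in the authors' deposited units, which are whole multiples of a tag, a counted sequencing read. If the units are scaled to 10 M tags, the libraries hold 11.4 and 12.0 M tags for PPARγ in DMSO and rosiglitazone, and 4.53 and 7.85 M for C/EBPα. They hold 2.86 and 1.31 M for MED1 and 4.52 and 1.65 M for CBP. A single MED1 tag is thus worth 3.49 units in DMSO and 7.65 in rosiglitazone. Over its whole list, PPARγ signal with rosiglitazone was 1.53 times that in DMSO, a log2 shift of 0.61. At PPARγ peaks the same shift was 0.70 for MED1 and 0.46 for CBP, and C/EBPα at C/EBPα peaks shifted by 0.02. Bulk chromatin cannot tell more cells with an occupied site from more occupancy per cell.

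RefSeq promoter sequences (GRCm38.p6) were given for Ucp1, Ppargc1a and Prdm16. Those of Ucp1 and Ppargc1a are shown, and that of Prdm16 is not, although its window too was drawn around its gene. AGGTCA was searched because PPARγ binds as a dimer with RXR to repeats of AGGTCA-like sites. The 250 bases before the start are printed 5′ to 3′ on the gene's strand, with any AGGTCA on either strand in capitals. They lie at chr8:83290098-83290347 on the plus strand and chr5:51567726-51567975 on the minus strand.
Ucp1: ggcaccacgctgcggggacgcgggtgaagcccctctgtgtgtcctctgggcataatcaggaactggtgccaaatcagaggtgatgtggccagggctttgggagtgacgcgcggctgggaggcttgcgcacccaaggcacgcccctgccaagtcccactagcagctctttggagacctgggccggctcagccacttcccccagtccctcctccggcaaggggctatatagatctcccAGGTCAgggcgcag
Ppargc1a: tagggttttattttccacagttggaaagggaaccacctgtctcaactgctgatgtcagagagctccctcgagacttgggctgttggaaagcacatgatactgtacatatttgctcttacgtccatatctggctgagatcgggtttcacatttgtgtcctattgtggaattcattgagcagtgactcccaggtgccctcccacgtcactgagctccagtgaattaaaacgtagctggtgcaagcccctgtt
The Ucp1 promoter held AGGTCA 1 time, beginning 14 bases before the start, and that of Ppargc1a did not hold it. Of 32851 RefSeq promoters of the same length, 14.0% held it on either strand. Neither promoter held 2 copies of AGGTCA in direct repeat with any 1 base between them (0.0335% of promoters) or the C/EBP core TTGCNNAA (9.56%), both searched on both strands. The peaks are on another build and were not placed on these sequences.

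Peaks were dense around 4 of the genes and sparse around Prdm16. The Elovl3 window held 8 PPARγ peaks, Ppargc1a 7, Ucp1 6, Cidea 5 and Prdm16 1. The C/EBPα list had 7 at Cidea, 6 each at Ucp1 and Ppargc1a, 5 at Elovl3 and 2 at Prdm16. Per Mb this is 88.9 PPARγ peaks at Elovl3 but 2.38 at Prdm16, against 11.9 over the whole list. Most of these peaks were of ordinary strength. The median PPARγ score, the authors' value per peak, was 12.4 against 11.5 for the list, and the median C/EBPα score 12.9 against 15.3. In the top 10% of their lists were 4 PPARγ peaks (2 at Ucp1 and 2 at Cidea) and 4 C/EBPα peaks (2 at Ucp1, 1 at Cidea and 1 at Ppargc1a).

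PPARγ and C/EBPα met at 12 sites, counting peaks with at least 1 bp in common. That is 44.4% of the PPARγ peaks (exact interval 25.5 to 64.7) and 46.2% of the C/EBPα peaks (26.6 to 66.6), where the whole lists shared 36.1% and 36.2%. The share at single loci rests on few peaks. At Ppargc1a 5 of 7 PPARγ peaks were shared, at Ucp1 3 of 6, at Cidea 2 of 5, at Elovl3 1 of 8, and at Prdm16 the single PPARγ peak. The exact interval of the share ran from 29.0 to 96.3% at Ppargc1a and from 0.316 to 52.7% at Elovl3. These overlap, and the interval of every locus includes the list's 36.1%. The centres of the 12 pairs lay between 1 and 132 bp apart. With centres at most 50 bp apart as the rule, 7 sites were left. The share of the whole lists under that rule is not given here, so the 7 is not set against a background.

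**Figure D1:**
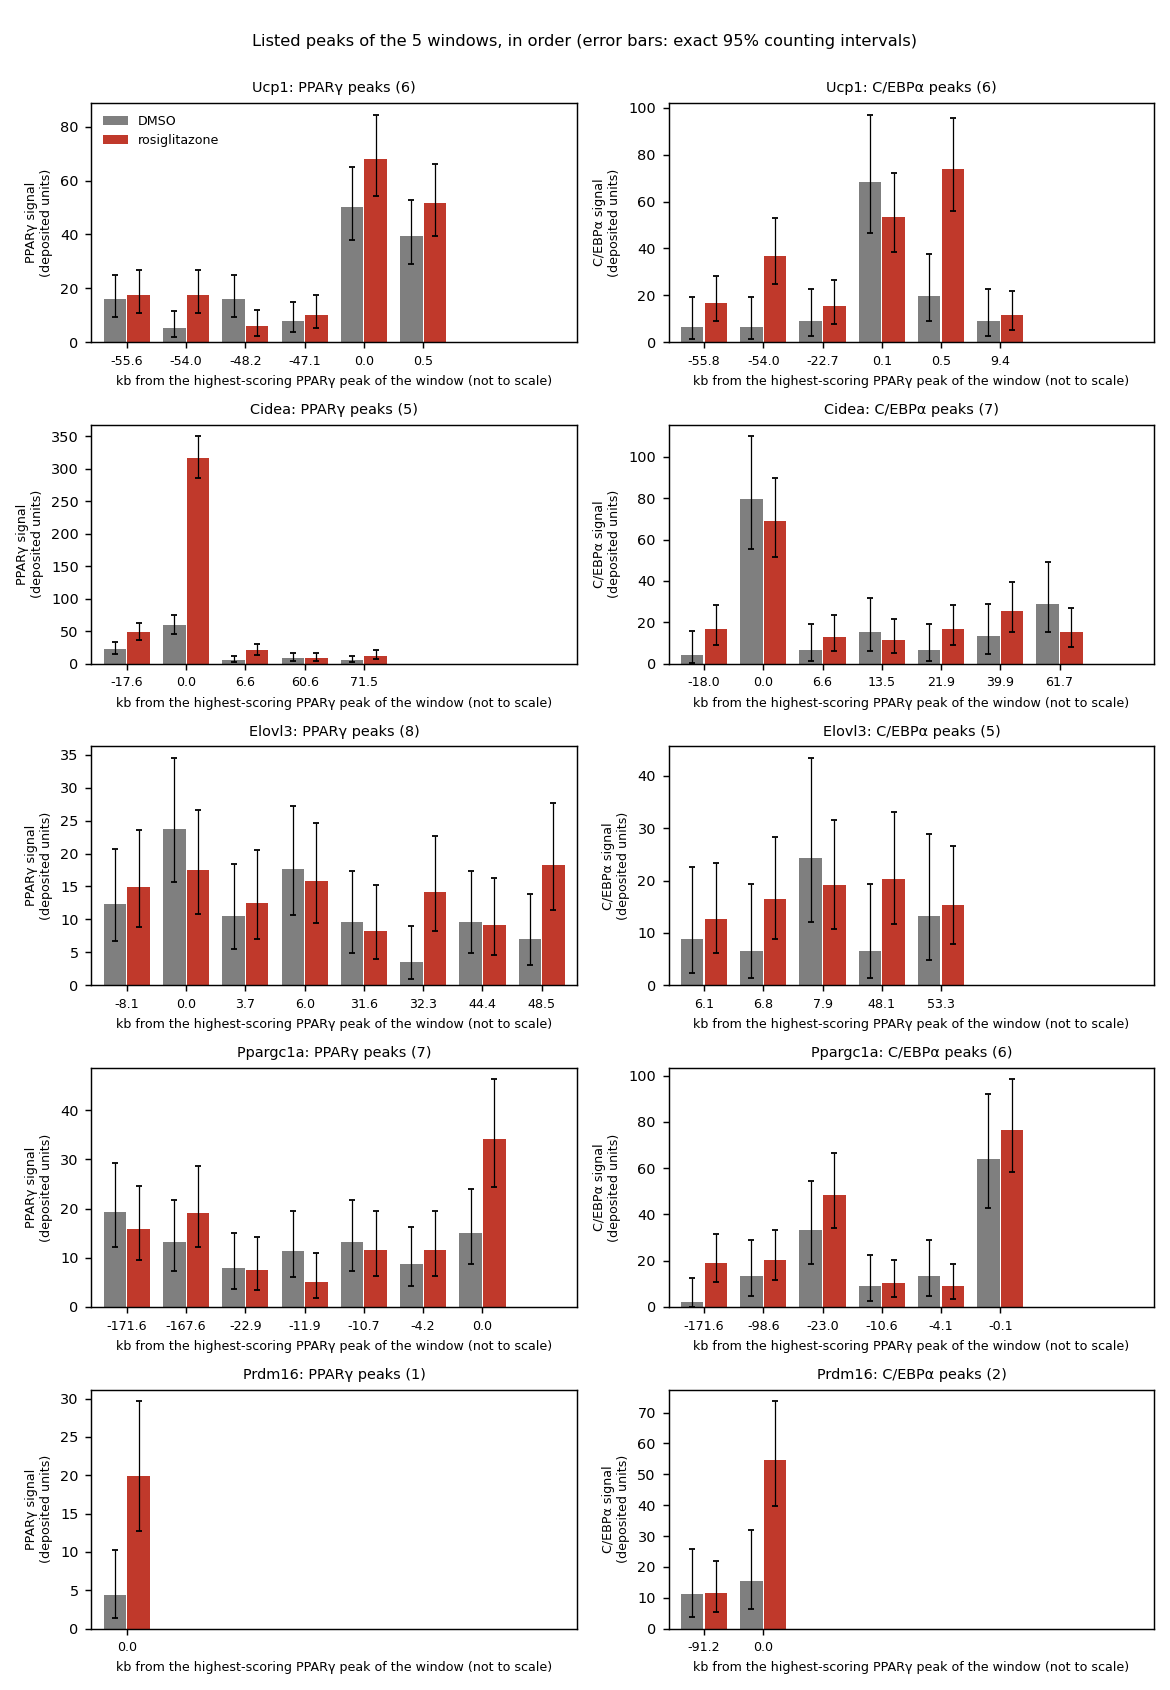
Signal in deposited units (vertical axis) of PPARγ at PPARγ peaks (left) and of C/EBPα at C/EBPα peaks (right), in DMSO (grey) and rosiglitazone (red), with exact 95% counting intervals. Peaks stand in order along the chromosome and are labelled in kb from the highest-scoring PPARγ peak of the window. PPARγ at the top Cidea peak went from 58.9 to 317 units, while no other PPARγ peak exceeded 68.2.

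The largest gain in PPARγ units among the 5 windows was at Cidea. PPARγ summed over its 5 peaks was 101 units in DMSO against 407 with the ligand, for a ratio of 4.03 (3.28 to 4.98), above the 1.53 of the whole list. PPARγ was at least 2-fold higher at 4 of the 5 peaks, where the whole list had 30.0%, and the intervals of 3 of these lay above 1. The peak at chr18:67489524-67489710 carried 74.0% of the window's PPARγ tags. It held 58.9 units in DMSO and 317 with the ligand, from 67 and 381 tags, a ratio of 5.38 (4.14 to 7.08). Its score of 190.6 was rank 68 in the PPARγ list, and its log2 ratio of 2.41 stood at percentile 96.0 among the 26384 PPARγ peaks with at least 20 tags. Without it the window's PPARγ ratio was 2.15 (1.52 to 3.08), an interval that just includes the list's 1.53. The excess of the window over the list beyond counting error thus rests on this peak.

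At this Cidea site the antibodies parted. C/EBPα peaked 5 bp away and was 75.1 units in DMSO and 63.7 in rosiglitazone in the PPARγ window, a ratio of 0.848 (0.538 to 1.35). MED1, the Mediator subunit that nuclear receptors bind, was 48.9 and 153 units, a ratio of 3.13 (1.50 to 6.69) from 14 and 20 tags. CBP, a histone acetyltransferase, had 0 tags in DMSO and 3 in rosiglitazone (0 and 18.2 units). So PPARγ and MED1 were higher beyond counting error, and the interval of C/EBPα included 1, at a site that both factors already occupied in DMSO. The MED1 interval includes the 1.63 of the whole list, while that of PPARγ lies above its 1.53. The mean CBP signal stood at percentile 58.7 of the list, beside 99.8 for PPARγ and 96.1 for MED1.

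The other Cidea peaks were weaker. At chr18:67471885-67472071, which overlaps no C/EBPα peak but has a weak one beside it at chr18:67471477-67471707 (4.42 and 16.6 units of C/EBPα), PPARγ was 22.9 units in DMSO against 48.2 with the ligand, for a ratio of 2.11 (1.31 to 3.49). MED1 there had 0 tags without the ligand and 6 with it. The exact interval of that ratio begins at 2.58, and the test of both libraries' tags over the list, described with the counts over all windows, did not call it. At chr18:67496086-67496272, shared with C/EBPα, PPARγ was 5.28 and 20.8 units, a ratio of 3.94 (1.58 to 11.7). Of the last 2 peaks, chr18:67550129-67550315 held 8.79 and 9.15 units of PPARγ and chr18:67561004-67561190 held 5.28 and 12.5, both with intervals that include 1. MED1 summed over the 5 peaks was 80.4 units in DMSO against 260 with the ligand, for a ratio of 3.24 (1.85 to 5.76), above the list's 1.63. Over the 7 C/EBPα peaks the MED1 ratio was 2.07 (1.27 to 3.38), an interval that includes the 1.43 of the C/EBPα list. C/EBPα over the 7 C/EBPα peaks had a ratio of 1.08 (0.802 to 1.46), or 1.80 as a median over peaks. That median is a log2 ratio of 0.851, beside 0.075 for the C/EBPα list. With the ligand, 2 of the 7 gained C/EBPα by 2-fold or more and 0 lost as much. Over the C/EBPα list, 15.9% of peaks gained and 9.25% lost by this rule. Whether 2 of 7 differs from that share was not tested.

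**Figure D2:**
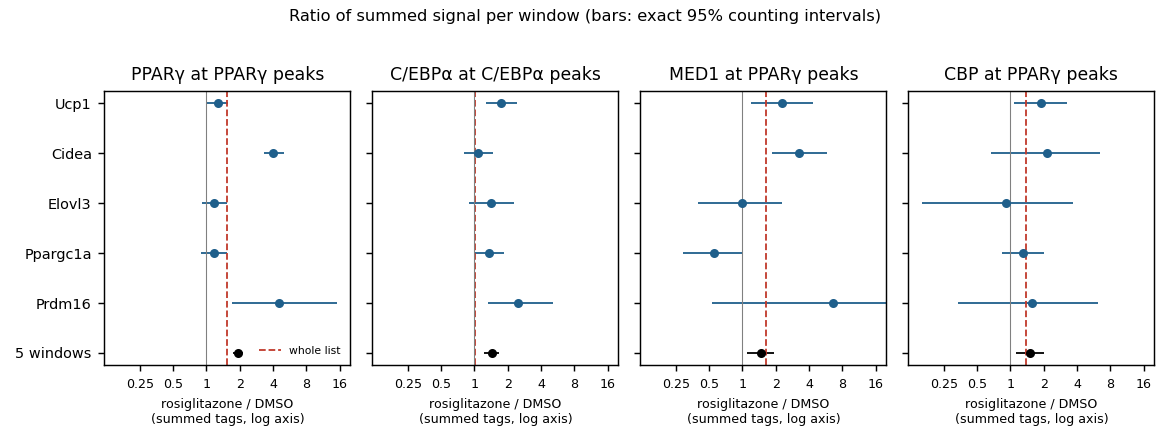
Ratio of rosiglitazone to DMSO (horizontal log axis) of tags summed over the peaks of each window, with exact 95% counting intervals, for 4 antibodies. The dashed line is the whole list, and the upper MED1 limit at Prdm16 runs off the axis. Cidea stood at 4.03 for PPARγ and 3.24 for MED1. Prdm16, with 1 PPARγ peak and wide intervals, stood at 4.54 and 6.57. Ucp1, Elovl3 and Ppargc1a stayed between 1.18 and 1.27 for PPARγ.

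The Ucp1 window was led by a pair of strong sites 526 bp apart. The second lay 12.9 kb from the edge of the window. The pair is named after the window and is not assigned to Ucp1 rather than to a neighbour such as Elmod2. At the first, chr8:85856524-85856710, PPARγ was 50.1 units in DMSO against 68.2 with the ligand, for a ratio of 1.36 (0.958 to 1.94). At the second, chr8:85857050-85857236, PPARγ was 39.6 and 51.5 units, a ratio of 1.30 (0.873 to 1.96). Their scores of 58.5 and 44.4 stood at percentiles 96.9 and 94.6 of the list, and both overlapped a C/EBPα peak. PPARγ itself did not differ beyond counting error at either.

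The pair differed in C/EBPα and in the coactivators. C/EBPα in the first PPARγ window was 59.6 units in DMSO against 40.8 with the ligand, for a ratio of 0.684 (0.397 to 1.19). In the second it was 15.5 and 62.4 units, a ratio of 4.04 (1.82 to 10.6). The second ratio was 5.81 times the first (exact interval 2.15 to 17.8), and 4.70 times (1.94 to 12.5) when counted in the C/EBPα windows. This pair was singled out after its values had been seen, and the interval compares these libraries only. In DMSO the first site had more C/EBPα than the second beyond counting error. With the ligand the intervals of the sites overlapped, at 27.9 to 57.5 and 46.2 to 82.5 units.

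MED1 and CBP were high in the list at the first site of the Ucp1 pair, and MED1 was low at the second. MED1 at the first was 45.4 units in DMSO against 153 with the ligand, for a ratio of 3.37 (1.59 to 7.37), and CBP 59.7 and 103, a ratio of 1.73 (0.883 to 3.29). At the second, MED1 had 0 and 1 tags and CBP 3 and 3. The mean MED1 signal there stood at percentile 34.4 of the list, beside 66.2 for CBP, 94.8 for PPARγ and 93.5 for C/EBPα. The MED1 ratio of the first site depended on the window counted. In the overlapping C/EBPα peak, whose centre is 90 bp away, MED1 was 38.4 and 45.9 units, a ratio of 1.19 (0.363 to 3.52) from 11 and 6 tags. CBP in that C/EBPα peak was 55.3 and 109 units, a ratio of 1.98 (1.02 to 3.77) from 25 and 18 tags.

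**Figure D3:**
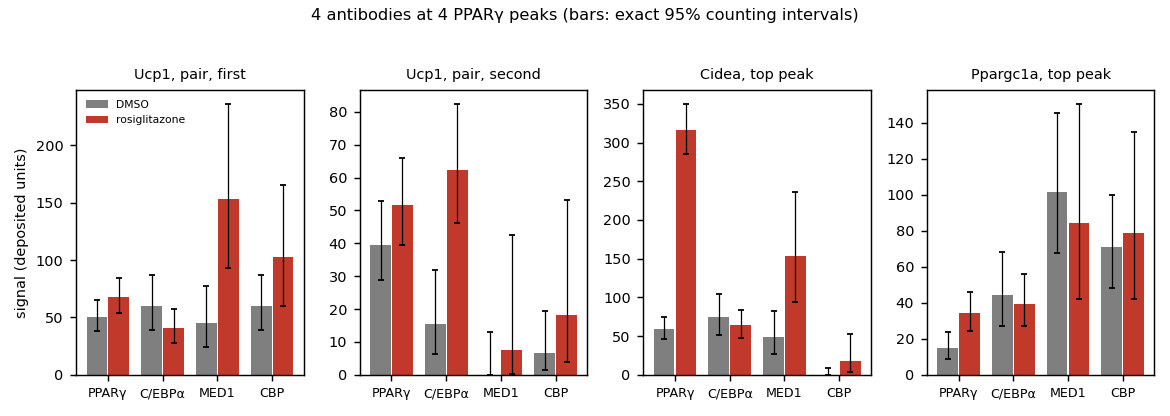
Signal in deposited units (vertical axes, each panel with its own scale) of PPARγ, C/EBPα, MED1 and CBP at 4 PPARγ peaks in DMSO (grey) and rosiglitazone (red), with exact 95% counting intervals. C/EBPα was 59.6 and 40.8 units at the first site of the Ucp1 pair, within counting error, and 15.5 and 62.4 at the second. CBP was 0 and 18.2 units at the top Cidea peak and 70.7 and 78.8 at the top Ppargc1a peak.

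The remaining PPARγ peaks at Ucp1 lay between 47.1 and 55.6 kb from the pair, with scores of at most 15.8. At chr8:85802526-85802712 PPARγ was 5.28 units in DMSO against 17.5 with the ligand, for a ratio of 3.31 (1.29 to 10.0). The C/EBPα peak that overlaps it had 6.62 and 36.9 units of C/EBPα, a ratio of 5.58 (1.73 to 28.6), with few tags in DMSO (3). So both factors were higher there with rosiglitazone. The PPARγ interval includes the 1.53 of its list, while that of C/EBPα lies above its 1.01. At chr8:85808298-85808484 PPARγ was 15.8 units in DMSO against 5.82 with the ligand, for a ratio of 0.368 (0.130 to 0.923). It was the only one of the 27 PPARγ peaks whose interval lay below 1, and it held 0 and 2 tags of C/EBPα and no MED1 tag. The intervals are not adjusted for the number of peaks, and the test of both libraries' tags over the list did not call this peak.

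Summed over the Ucp1 window, PPARγ was 1.27 times higher with rosiglitazone (1.02 to 1.57), but 0.830 times when the libraries were rescaled to equal tags over the list. C/EBPα over the 6 C/EBPα peaks was 119 units in DMSO against 208 with the ligand, for a ratio of 1.74 (1.27 to 2.41), where the whole list had 1.01. Without the peak with the most C/EBPα tags, that of the first site, it was 3.03 (1.93 to 4.97). MED1 over the 6 PPARγ peaks had a ratio of 2.29 (1.20 to 4.38), of which the first site of the pair held 76.7% of the tags. Without that site it was 0.547 (0.0566 to 2.74). Over the 6 C/EBPα peaks the MED1 ratio was 1.34 (0.571 to 2.99). CBP had a ratio of 1.88 (1.07 to 3.25) over the 6 PPARγ peaks and 1.95 (1.14 to 3.28) over the 6 C/EBPα peaks. These CBP intervals lie above 1 but include the 1.38 and 1.25 of the whole lists.

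Ppargc1a carried its coactivators at sites that were modest for PPARγ. The highest-scoring PPARγ peak, chr5:51987097-51987283, held 15.0 units of PPARγ in DMSO against 34.1 with the ligand, for a ratio of 2.28 (1.27 to 4.28). That interval includes the 1.53 of the list. Its score of 23.9 stood at percentile 84.2. The C/EBPα peak that overlaps it, chr5:51986995-51987225, with its centre 80 bp away, was stronger and had a score of 70.3 (percentile 95.1). C/EBPα there was 64.0 and 76.4 units, a ratio of 1.19 (0.754 to 1.93).

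In that C/EBPα window MED1 was 182 units in DMSO against 199 with the ligand, for a ratio of 1.09 (0.656 to 1.79). CBP was 119 and 152 units, a ratio of 1.27 (0.757 to 2.08). Both means stood high in the C/EBPα list, at percentiles 99.1 and 99.4. They were the highest MED1 and CBP values of all 53 peaks and were already present without the ligand. PPARγ in the same window was 7.91 and 37.4 units, a ratio of 4.73 (2.28 to 11.0). The ligand thus went with more PPARγ at this site, while neither coactivator differed beyond counting error.

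A second Ppargc1a site, chr5:51976392-51976578, was rich in CBP. CBP was 70.7 units in DMSO against 115 with the ligand, for a ratio of 1.63 (0.872 to 2.96), and its mean stood at percentile 98.6 of the PPARγ list. PPARγ was 13.2 and 11.6 units and C/EBPα 0 and 5.09. MED1 was 66.4 units in DMSO against 15.3 with the ligand, for a ratio of 0.230 (0.0260 to 0.955), from 19 and 2 tags. The test of both libraries' tags over the list did not call this MED1 difference. The overlapping C/EBPα peak, 123 bp away, held 10.5 and 7.65 units of MED1, from 3 and 1 tags, and 33.2 and 66.7 of CBP.

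Over the 7 PPARγ peaks at Ppargc1a, MED1 was 206 units in DMSO and 115 in rosiglitazone. The ratio of 0.557 (0.293 to 0.994) lay below the 1.63 of the list, and was 0.292 (0.0747 to 0.829) without the top peak. Over the 6 C/EBPα peaks it was 1.01 (0.626 to 1.59), so the lower value was not seen in those windows. PPARγ summed over the locus had a ratio of 1.18 (0.901 to 1.55), 0.773 after rescaling to equal tags over the list, and 0.957 (0.699 to 1.31) without the top peak. The most distant PPARγ peak, chr5:51815492-51815678, about 172 kb from the top one, held 19.4 and 15.8 units of PPARγ and no MED1 tag. Another C/EBPα peak, chr5:51964037-51964267, held 33.1 and 48.4 units of C/EBPα, also with no MED1 tag.

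Elovl3 had the most PPARγ peaks and none of them strong. Its 8 scores ran from 8.50 to 20.5, and PPARγ from 3.52 to 23.7 units over both treatments. The highest, chr19:46178627-46178813, held 23.7 units in DMSO against 17.5 with the ligand, for a ratio of 0.735 (0.395 to 1.35), the lowest of the locus. At chr19:46210946-46211132 PPARγ was 3.52 and 14.1 units, a ratio of 4.02 (1.31 to 16.4), and at chr19:46227094-46227280 7.03 and 18.3, a ratio of 2.60 (1.11 to 6.75). Both intervals include the list's 1.53. The test of both libraries' tags over the list called the former peak and not the latter. The other 6 had intervals that include 1, and so did the sum of all 8, at 1.18 (0.904 to 1.53), or 0.770 after rescaling to equal tags over the list.

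C/EBPα at Elovl3 was also weak. The 5 C/EBPα peaks ran from 6.62 to 24.3 units, all with intervals that include 1. The highest, chr19:46186457-46186687, had a score of 20.2, with 24.3 units in DMSO and 19.1 in rosiglitazone. At chr19:46184673-46184903, the shared site, C/EBPα was 8.83 and 12.7 units, at chr19:46185393-46185623 6.62 and 16.6, at chr19:46226670-46226900 6.62 and 20.4, and at chr19:46231947-46232177 13.3 and 15.3. No Elovl3 peak of either list had more than 12 MED1 tags or 5 CBP tags over both libraries. Summed over the 8 PPARγ peaks, MED1 had a ratio of 0.985 (0.395 to 2.26) and CBP of 0.915 (0.159 to 3.66), both with wide intervals that include 1.

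Prdm16 had a single PPARγ peak in 420 kb. At chr4:153901672-153901858 PPARγ was 4.40 units in DMSO against 19.95 with the ligand, for a ratio of 4.54 (1.70 to 15.2) from 5 and 24 tags. The C/EBPα peak that overlaps it held 15.5 and 54.8 units of C/EBPα, a ratio of 3.54 (1.58 to 9.34) from 7 and 43 tags. Its log2 ratio of 1.76 stood at percentile 96.3 among the 15789 C/EBPα peaks with at least 20 tags. Both factors were thus higher with rosiglitazone at this site. MED1 was 3.49 and 23.0 units, from 1 and 3 tags, and CBP 15.5 and 24.3. The other C/EBPα peak, chr4:153810445-153810675, held 11.0 and 11.5 units of C/EBPα and no MED1 or CBP tag.

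Across the 5 windows the PPARγ ratio was 1.92 (1.72 to 2.15), but this rests on Cidea. Without the Cidea window it was 1.26 (1.10 to 1.45), below the list's 1.53. At least 2-fold higher were 9 of the 27 PPARγ peaks, where the list had 30.0%, and at least 2-fold lower were 2, where the list had 4.43%. A binomial test of the tags of both libraries, adjusted over the list, called 7 peaks higher and 0 lower, where the list had 20.1% and 1.57%. These shares are near the background. The 7 were 3 Cidea peaks and 1 in each other window. That test compares the libraries, not the conditions.

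C/EBPα in the windows was higher with rosiglitazone than over its list. Summed over the 26 C/EBPα peaks it was 495 units in DMSO against 708 with the ligand, for a ratio of 1.43 (1.22 to 1.68), against 1.01. It lay between 1.33 and 1.59 with each window left out in turn, and was above 1 in each of the 5 windows, with intervals that include 1 at Cidea and Elovl3. At Ppargc1a the ratio was 1.36 (1.003 to 1.87). The intervals of Cidea, Elovl3 and Ppargc1a include the list's 1.01, and those of Ucp1 and Prdm16 lie above it. At Prdm16 it was 2.50 (1.32 to 5.14), which rests on the shared site. Counted in the 27 PPARγ peaks, C/EBPα had a ratio of 1.31 (1.07 to 1.62), and 1.17 (0.914 to 1.51) without the Ucp1 window. In those peaks it was 0.976 (0.647 to 1.49) at Cidea and 0.814 (0.420 to 1.62) at Elovl3, so it was not above 1 everywhere. Of the 26 C/EBPα peaks, 9 were higher by 2-fold or more and 0 lower, where the list had 15.9% and 9.25%, and among the 11 peaks with at least 20 tags 3 were higher, where the list's peaks of that depth had 13.8%. The library test called 3 higher, 2 at Ucp1 and 1 at Prdm16, and 0 lower, where the list had 1.65% and 1.25%. The C/EBPα rosiglitazone library was the deeper one, and the part of depth in these counts was not tested.

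**Figure D4:**
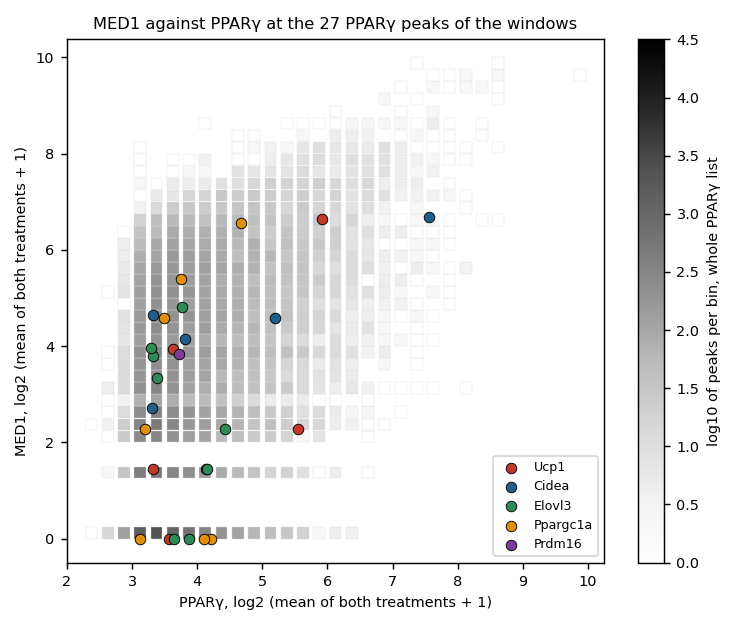
MED1 against PPARγ at PPARγ peaks, each as log2 of the mean of both treatments plus 1, with the 27 peaks of the windows in colour over the whole list in grey (darker squares hold more peaks). The top Cidea peak, the first site of the Ucp1 pair and the top Ppargc1a peak reach MED1 percentiles of 95.2 to 96.1, while 6 peaks lie at 0.

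MED1 and CBP were sparse at these loci, as in the list. Of the 27 PPARγ peaks, 4 had at least 20 MED1 tags (14.8%, against 14.0% of the list) and 3 had at least 20 CBP tags (11.1%, against 11.2%). MED1 was at 0 tags in both libraries at 6 peaks and CBP at 6 (22.2% each, against 21.2% and 23.8% of the list). MED1 summed over the windows had a ratio of 1.47 (1.10 to 1.95), or 0.901 after rescaling to equal tags over the list, and CBP 1.51 (1.11 to 2.03), or 1.09 after rescaling. The intervals include the list's 1.63 and 1.38. The MED1 ratio was 1.06 (0.739 to 1.51) without the Cidea window and 2.29 (1.61 to 3.27) without the Ppargc1a window. At least 2-fold higher for MED1 were 8 PPARγ peaks and lower 6, where the list had 29.8% and 22.5%. For CBP 7 were higher and 9 lower, where the list had 23.6% and 25.1%. For both coactivators 1 tag alone can pass this 2-fold rule. The library test called 2 higher for MED1, the top Cidea peak and the first site of the Ucp1 pair, and 0 lower, where the list had 3.18% and 0.304%. For CBP it called 0 in either direction, where the list had 0.418% and 0.00327%.

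The loci can be ordered by PPARγ summed over their PPARγ peaks. In DMSO this was 135 units at Ucp1, 101 at Cidea, 94.1 at Elovl3, 88.8 at Ppargc1a and 4.40 at Prdm16. In rosiglitazone it was 407 at Cidea, 170 at Ucp1, 111 at Elovl3, 105 at Ppargc1a and 19.95 at Prdm16. MED1 in DMSO had another order, with 206 units at Ppargc1a, 80.4 at Cidea, 73.4 at Ucp1, 69.9 at Elovl3 and 3.49 at Prdm16. The MED1 intervals of Cidea, Ucp1 and Elovl3 overlapped, and those of Ppargc1a and Prdm16 stood apart from their neighbours. For PPARγ in DMSO the exact intervals of neighbours overlapped from Ucp1 to Ppargc1a. In rosiglitazone, of these neighbours, they overlapped between Elovl3 and Ppargc1a and not between Cidea and Ucp1 or Ucp1 and Elovl3.

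Several strong peaks lay just outside the windows. The nearest PPARγ peak beyond the Ucp1 window, 17.4 kb from its edge, had a score of 48.3. At Elovl3 the nearest PPARγ and C/EBPα peaks, about 9.5 kb before the edge, had scores of 34.2 and 46.0. The C/EBPα peak 20.3 kb before the Prdm16 window had a score of 63.8, above both inside it. At Cidea a PPARγ peak with a score of 7.70 lay 0.416 kb outside, with 2.64 units in DMSO and 14.1 in rosiglitazone. The first peaks inside had scores of 15.8 at Ucp1, 35.9 at Cidea, 12.4 at Elovl3 and 17.5 at Ppargc1a.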

How the data were processed

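Chromatin immunoprecipitation sequencing was done in 16 samples, of which the 2 peak lists hold 8 signal columns. Per the submitters' processing notes, the authors used FastQC, Bowtie, HOMER and edgeR with build mm9. Their versions and parameters are not stated in these sources. The labels list 2 PPARγ samples per treatment, but each treatment has 1 PPARγ column with no replicate number. Whether it holds 1 or both samples is not known, so its tags may come from more than 1 culture. The MED1 column headed BRL was taken as rosiglitazone. The samples of RNA polymerase II and of input were not used here. The deposited signal is normalised tags per peak. Of its values above 0, 100% were whole multiples of 1 step per column (tolerance 0.02 steps), so tags were recovered. The deposited peak score and the focus ratio, a fraction, have 1 value per peak; the score only ranked peaks within a list.

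Ratios are of summed tags with Clopper-Pearson intervals (scipy 1.17.1). Per-peak log2 ratios used a pseudocount of 1 on the deposited scale. It pulls the ratios of low peaks toward 1, but 1 tag alone can still pass 2-fold for MED1 and CBP. A CBP tag is worth 2.21 units in DMSO and 6.06 in rosiglitazone. At the second site of the Ucp1 pair, MED1 with 0 and 1 tags had a log2 ratio of 3.11. A count model needs replicates, and with 1 column per treatment a binomial test of each peak's tags took its place, adjusted over the list by Benjamini-Hochberg (0.05) and checked on simulated data. It called 6152 PPARγ peaks higher and 479 lower in the PPARγ list, and 503 C/EBPα peaks higher and 383 lower in the C/EBPα list. Tags carry no molecular identifiers. Named peaks were, per window, the highest score in each list, the highest and lowest PPARγ ratio among peaks with at least 20 tags, every peak with at least 20 MED1 or CBP tags, and shared peaks in the top 10% by PPARγ score. Lists with 5 or fewer peaks at a locus were given peak by peak. Other peaks named were chosen after their values were seen. The members and lists were chosen with earlier results of these data known. A wider list of brown fat genes was not used, since no mm9 gene positions were at hand.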

Additional observations from a re-analysis of the deposited data

How the results depend on the processing

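No paired analysis was possible because the PPARγ columns carry no replicate number, and no replicate could be left out. Over all windows the PPARγ ratio of 1.92 was 1.26 with both libraries rescaled to equal tags over the list, 2.25 with windows narrowed by 20 kb, 1.23 as a median over peaks and 1.36 without the top Cidea peak. The C/EBPα ratio stayed between 1.34 and 1.54 in all 6 alternatives. MED1 reversed to 0.901 after rescaling and was 1.00 as a median over peaks, and CBP was 1.09 and 1.00. As a log2 ratio, the median over PPARγ peaks was 0.301 for PPARγ in the windows and 0.503 in the whole list. For MED1 and CBP it was 0 in both. At Ucp1, PPARγ reversed to 0.830 after rescaling, and MED1 reversed to 0.274 with narrowed windows, 0.627 as a median and 0.547 without its peak with the most tags. The narrowed Ucp1 window drops the pair of strong sites; the other causes were not tested. Of the counts of peaks at least 2-fold apart, with a pseudocount of 5 PPARγ had 5 higher and 0 lower, MED1 3 lower and CBP 0 lower. Centred on the list median, 5 were higher for PPARγ. Among peaks with at least 20 tags, 1 was lower for PPARγ, 3 higher for C/EBPα, 2 higher and 1 lower for MED1, and 0 and 0 for CBP. For these changed 2-fold rules the list's share is given only for C/EBPα at 20 tags (13.8% higher). The other counts therefore cannot be read against the background. The test of the tags of both libraries, added as an alternative to the 2-fold rule after seeing the data, called 0 lower for PPARγ, 3 higher for C/EBPα, 2 higher and 0 lower for MED1, and 0 and 0 for CBP. Shared sites numbered 7 in each list with centres at most 50 bp apart and 5 in each list among peaks at or above the median score, which 16 of the PPARγ and 12 of the C/EBPα peaks reached. The shares of the whole lists under these rules are not given here. Depth limits MED1 and CBP most: at 13 and 19 of the 27 PPARγ peaks they had at most 3 tags over both libraries. The list's share with at most 3 tags is not given here.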
